A study of Mus musculus with 10 samples.

Results

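The BCL2 family decides whether a B cell lives or dies, and 10 of its genes were followed here in sorted mouse splenic B cells: the survival genes Bcl2, Bcl2l1 and Mcl1, the effector gene Bak1, and the BH3-only genes Bmf, Pmaip1, Bcl2l11, Bbc3, Bid and Bad. They were chosen by symbol, with earlier results of these data known. Each was read by 1 probe set that carried that symbol alone, so all 10 of the 10 were measured among 19937 genes in all. The arrays were Affymetrix Mouse Gene 1.0 ST arrays, 10 in number, of B220+CD22+ cells from the spleen of mice labelled CBAxC57BL/6J. The 4 delta arrays came from Sca1-Bcl6(delta) mice, in which the floxed transgene had been crossed with mb1-Cre, the 3 floxed arrays from Sca1-Bcl6(floxed) mice, and the 3 wild-type arrays from mice without the transgene. The transgene placed a loxP-flanked mouse Bcl6 and eGFP cassette under the Ly6a (Sca1) vector, so that Cre expressed from the B cell locus Cd79a (mb1) can remove it in the B lineage. The labels say that the study had several transgenic lines but not which line gave which array. Age, sex and animal are not labelled for any array, nor whether the floxed or wild-type mice carried Cre. Arrays of a group may thus share an animal, and a p-value here sets a difference against the spread between arrays, which may be technical.

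BCL2 family proteins act at the outer membrane of the mitochondrion. BCL2, BCL-XL (from Bcl2l1) and MCL1 hold the pore-forming effectors BAK and BAX in check. BH3-only proteins are released or made under stress, bind the survival proteins through their BH3 helix, and so free the effectors to let cytochrome c out and start the caspases. In B cells BIM (from Bcl2l11) removes self-reactive and surplus cells, BMF and PUMA (from Bbc3) add to that loss, and the survival factor BAFF keeps mature B cells alive through BCL2, MCL1 and the restraint of BIM.

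Promoter and microRNA sequences bear on the values that follow, all from RefSeq on build GRCm38.p6. FOXO transcription factors are known to raise BIM, PUMA and BMF, and the FOXO core was therefore searched in promoter windows of 250 bases before to 50 bases after each annotated start. The letters searched were TGTTTAC on either strand (GTAAACA on the other), which 3.65% of all 32851 windows held. Windows were found for 9 of the 10 genes, 17 windows in all, and 2 of these held the letters, 1 each for Bcl2l11 and Bbc3. None of the 3 Bmf windows did, and at a share of 3.65% so few windows cannot tell whether Bmf lacks the core. Whether 2 of 17 exceeds that share was not tested. A BCL6 site, TTCCTAGAA or TTCTAGGAA on the other strand, was in 0 of the 17 windows, against 0.411% of all windows. At that share 17 windows are too few to tell whether these genes lack the site. Other forms of the site were not searched. The Bmf window at the 5′ end of the gene is shown because Bmf was the gene that changed, and the windows of Bcl2l11 and Bbc3 because they hold the FOXO core. Capitals mark the FOXO core.
Bmf promoter, chr2:118549637-118549936, minus strand: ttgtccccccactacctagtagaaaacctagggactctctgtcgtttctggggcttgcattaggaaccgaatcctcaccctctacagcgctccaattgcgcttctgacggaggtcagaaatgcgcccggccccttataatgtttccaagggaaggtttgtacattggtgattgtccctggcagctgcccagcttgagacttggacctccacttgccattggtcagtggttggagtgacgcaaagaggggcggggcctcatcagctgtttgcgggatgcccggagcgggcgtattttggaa
Bcl2l11 promoter, chr2:128125788-128126087, plus strand: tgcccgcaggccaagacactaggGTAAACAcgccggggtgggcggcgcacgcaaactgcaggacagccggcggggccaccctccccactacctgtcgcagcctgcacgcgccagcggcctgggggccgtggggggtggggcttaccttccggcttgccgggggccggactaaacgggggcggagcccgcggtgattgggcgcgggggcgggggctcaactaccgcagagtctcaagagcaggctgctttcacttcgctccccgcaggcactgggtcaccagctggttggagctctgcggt
Bbc3 promoter, chr7:16310011-16310310, plus strand: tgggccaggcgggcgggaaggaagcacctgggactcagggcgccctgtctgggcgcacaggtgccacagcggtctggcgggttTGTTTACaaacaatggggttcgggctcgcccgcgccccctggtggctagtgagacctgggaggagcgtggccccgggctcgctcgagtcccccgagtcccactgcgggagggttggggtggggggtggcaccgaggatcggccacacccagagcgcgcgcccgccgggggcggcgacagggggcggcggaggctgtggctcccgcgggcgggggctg

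The other sequences are mature microRNAs of the miR-15 and miR-16 family, which represses Bcl2. They are shown because the Mir15a probe set changed in the comparison in which Bmf did. Capitals mark the seed, bases 2 to 8, which all 3 share.
mmu-miR-15a-5p, chr14:61632075-61632096, minus strand: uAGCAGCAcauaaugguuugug
mmu-miR-15b-5p, chr3:69009775-69009796, plus strand: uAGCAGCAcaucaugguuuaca
mmu-miR-16-5p, chr14:61631936-61631957, minus strand: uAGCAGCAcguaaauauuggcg

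The arrays were alike in overall signal, with medians of 139 to 145 in RMA intensity and correlations across genes of 0.989 to 0.997. B cell markers were at high log2 levels in every array, with Ms4a1 at 13.20 to 13.27 in delta, 13.22 to 13.30 in floxed and 13.29 to 13.31 in wild-type arrays. By the X-linked RNA Xist set against Y-linked Eif2s3y, Kdm5d and Uty, 1 of 4 delta arrays (delta 1), 3 of 3 floxed arrays and 0 of 3 wild-type arrays had a male pattern, so sex cannot be told apart from genotype in floxed against wild-type. Bcl6, the gene that the transgene carries, had a log2 change of -0.35 in delta (SE 0.14, adjusted p = 0.578) and -0.17 in floxed arrays (SE 0.15, adjusted p = 0.688). Each was taken against wild-type, and neither passed. Wild-type arrays, from mice without the transgene, had the highest mean (10.05), so the value does not measure the transgene alone. Wild-type 1 stood apart for Bcl6, at 10.48 against 9.87 and 9.80 in wild-type 2 and 3, and without it the changes were -0.13 in delta and 0.04 in floxed arrays. Cd79a, the locus that carries Cre, fell by 0.48 on the log2 scale in delta against wild-type (adjusted p = 0.0427), a comparison in which 0 genes passed when delta replicate 3 was left out (1546 at an unadjusted limma p under 0.05).

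Across the family, Bmf was lower in floxed than in wild-type B cells by about 2-fold, and the other 9 genes did not pass the test in any comparison. Floxed against wild-type had 1 of 10 genes lower and 0 higher past an adjusted p of 0.05, where 0.552% of all 19937 genes passed in either direction and 0.161% passed as lower. At an unadjusted p under 0.05 it had 3 of 10, beside 12.8% of all genes. Delta against wild-type had 0 of 10 genes past the threshold by limma, where 0.0752% of all genes passed, and 2 of 10 at an unadjusted p under 0.05, beside 7.89% of all genes. Delta against floxed had 0 of 10, where 0.00502% of all genes passed, and 1 of 10 at an unadjusted p under 0.05, beside 6.42% of all genes. Groups did not overlap for 3 genes in floxed against wild-type (Bmf, Bcl2l1 and Pmaip1), where 16.7% of all genes did not. In delta against wild-type this held for 2 genes (Bmf and Mcl1), with 9.25% of all genes, and in delta against floxed for 2 (Bcl2l1 and Bid), with 6.96% of all genes. The median log2 change of the 10 genes was 0.00, -0.01 and -0.05 in these comparisons, beside -0.02, -0.01 and 0.00 for all genes. Each pair of comparisons shares the arrays of 1 group. Because the 10 genes were chosen with earlier results of these data known, the counts are a description and no test of the family.

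**Figure D1:**
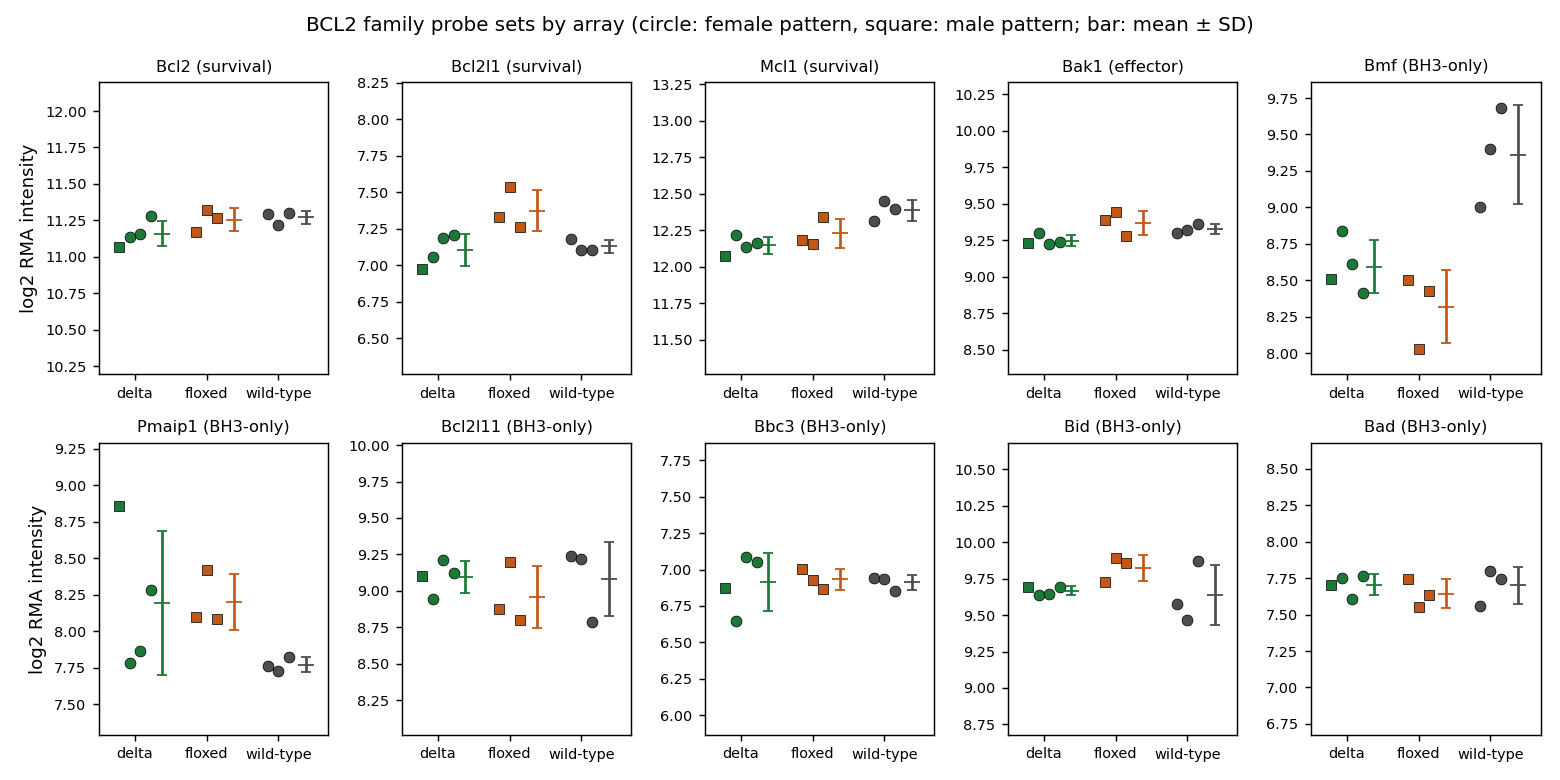
Log2 RMA intensity of each BCL2 family gene in every array, in delta (n = 4), floxed (n = 3) and wild-type (n = 3) groups, with the mean and SD beside the points and every panel spanning 2 log2 units. In Bmf all delta and floxed arrays lie below all wild-type arrays, while Bak1 and Bad stay within 0.22 and 0.25 log2 units over all arrays.

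Bmf encodes a BH3-only protein that is known to be held on the myosin motor through dynein light chain and to contribute to B cell loss in mice. Its gene lies on chromosome 2 at 118528757 to 118549686 (GRCm38.p6). Bmf had log2 levels of 8.51, 8.84, 8.61 and 8.42 in the 4 delta arrays, 8.50, 8.03 and 8.43 in the 3 floxed arrays, and 9.004, 9.40 and 9.68 in the 3 wild-type arrays. Every delta and floxed array was below every wild-type array, and the delta and floxed arrays overlapped, with floxed 2 lowest and wild-type 3 highest. In RMA intensity the means of Bmf were 389 ± 50.5 in delta (SD, n = 4), 323 ± 53.5 in floxed (SD, n = 3) and 670 ± 154 in wild-type arrays (SD, n = 3).

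Bmf fell in floxed against wild-type, with a log2 change of -1.04 (SE 0.17, 95% CI -1.42 to -0.66, limma adjusted p = 0.0282), a 2.06-fold difference, and 0.391% of all genes had a larger change. In delta against wild-type its log2 change was -0.77 (SE 0.16, 95% CI -1.12 to -0.41), a 1.70-fold difference that did not pass (adjusted p = 0.161), and 0.396% of all genes had a larger change. The direct difference of Bmf between delta and floxed was 0.27 (95% CI -0.08 to 0.63, adjusted p = 0.844). The means were thus lowest in floxed, then delta, then wild-type arrays, and the delta and floxed arrays did not differ beyond their spread.

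The call of Bmf rested on few arrays. Over 21 alternative settings the log2 change in floxed against wild-type lay between -1.24 and -0.88, always lower, and passed in 13 of them, with adjusted p between 0.0151 and 0.578. It did not pass without floxed replicates 1, 2 or 3 (adjusted p = 0.0545, 0.0972 and 0.0793), and its adjusted p was 0.113 and 0.0518 when wild-type replicates 2 or 3 were left out. It also did not pass with every probe set as its own row (adjusted p = 0.0952).

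**Figure D2:**
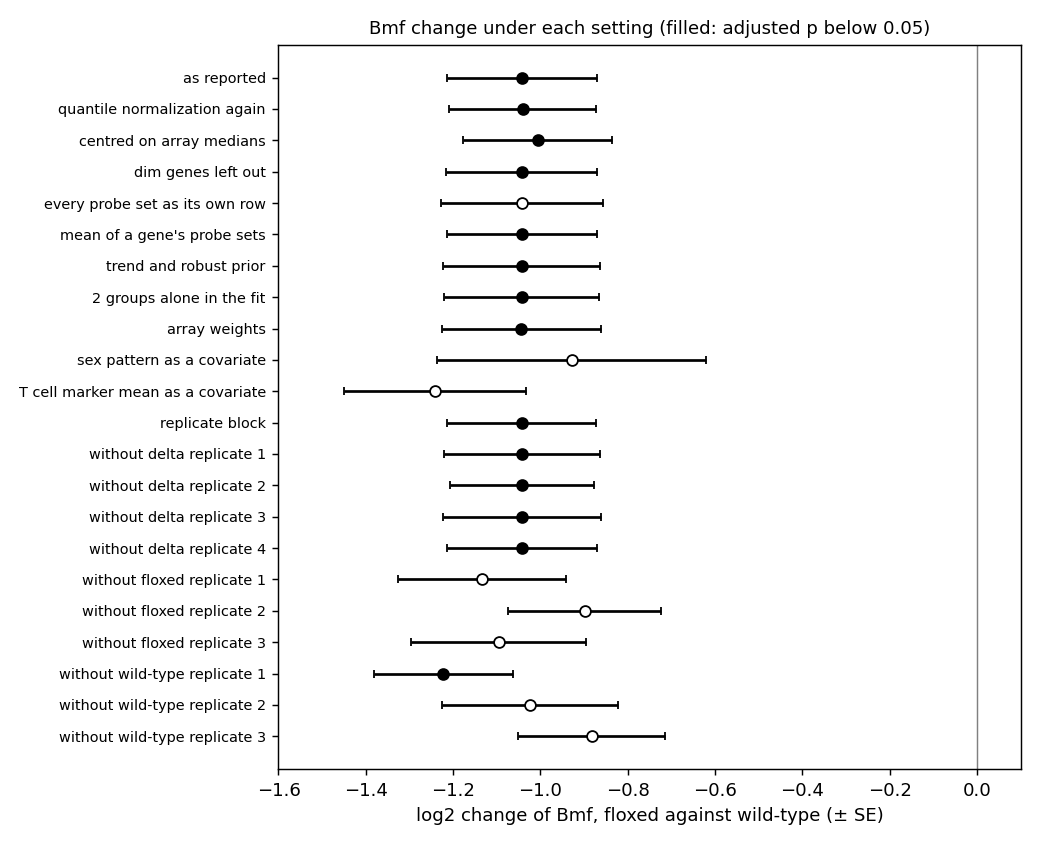
Log2 change of Bmf in floxed against wild-type (x axis, ± SE) under the reported fit and 21 alternative settings (rows), with filled points where the adjusted p was below 0.05. All points lie between -1.24 and -0.88, and 13 of the 21 alternatives are filled.

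With the sex pattern as a covariate the log2 change of Bmf in floxed against wild-type was -0.93 (SE 0.31, adjusted p = 0.578), an estimate that rests on delta 1 alone. Bmf in delta 1, of male pattern, was 8.51, inside the 8.42 to 8.84 of the delta arrays of female pattern. With 1 array of male pattern in that group, the part of sex in the Bmf levels was not tested. Among arrays of female pattern alone, delta against wild-type gave -0.74 (SE 0.17, adjusted p = 0.440).

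Markers of other cells and of B cell subsets did not stand at the same level in all groups. Of 14 T cell markers 12 were measured, and they had mean log2 levels of 6.96 to 7.29 in delta, 7.10 to 7.71 in floxed and 6.92 to 7.20 in wild-type arrays. Cd2, which raises these means, was at 11.44 to 11.83 in delta, 11.40 to 11.56 in floxed and 11.51 to 11.55 in wild-type arrays. The T cell mean was 0.63, 0.02 and 0.44 above the wild-type mean in floxed 1, 2 and 3. With this mean as a covariate the change of Bmf was -1.24 (SE 0.21, adjusted p = 0.0987). The erythroid list (6 of 10 markers) lay -0.30 to 0.36 from the wild-type mean in delta arrays and 0.42 to 0.89 above it in floxed arrays. The NK cell list (9 of 9) lay -0.11 to 0.29 from it in delta and 0.18 to 0.64 above it in floxed arrays, and the myeloid list (11 of 11) 0.13 to 0.65 above it in delta and 0.26 to 0.78 in floxed arrays. In delta arrays the myeloid markers did not move together, with 6 of 11 positive, a median log2 change of 0.05 and values of 1.35 for Adgre1 and -0.23 for Csf1r. Nor did they in floxed against wild-type, with 8 of 11 positive, a median of 0.27 and changes from -0.21 to 1.91. The NK cell list was uneven there too, with changes from -0.005 to 1.40 and a median of 0.165. Plasma cell markers (7 of 7) lay 0.03 to 0.12 above the wild-type mean in delta and 0.24 to 0.26 above it in floxed arrays. That list was split in floxed against wild-type, where Jchain rose (log2 change 1.64, adjusted p = 0.00383) and Sdc1 fell (-0.51, adjusted p = 0.0450). Germinal centre markers (7 of 8) lay -0.09 to 0.08 from the wild-type mean in delta and 0.03 to 0.42 above it in floxed arrays, and stood at 0.51, -0.20 and -0.30 in wild-type 1, 2 and 3. Their changes in floxed against wild-type were split, from -0.58 to 0.70, with 5 positive and 2 negative. RMA gives no value of 0, so no marker could be called absent.

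The list of transitional and immature B cell markers (8 of 8 measured) had mean log2 levels of 7.16 to 7.44 in delta, 7.28 to 7.41 in floxed and 7.51 to 7.80 in wild-type arrays. Cd93, a marker of immature B cells, had a log2 change of -1.58 in floxed against wild-type (adjusted p = 0.0282), which passed in 12 of 21 alternative settings. The other 7 did not pass there, and the list ran from -1.58 to 0.05 with a median of -0.13. In delta against wild-type 0 of the 8 passed, with changes from -1.30 to 0.07 and a median of -0.18. The list that joins markers of B1, marginal zone and age-associated B cells (10 of 10) lay 0.34 to 1.40 above the wild-type mean in delta and 1.02 to 1.12 above it in floxed arrays. Delta 4 alone stood at 1.40, and delta 1 to 3 at 0.34 to 0.49. In floxed against wild-type Nt5e (log2 change 2.37), Tbx21 (2.11) and Fcrl5 (1.07) passed as higher and the other 7 did not. Of all genes 0.552% passed there in either direction. All 10 changes there were positive, with a median of 1.02. At an unadjusted limma p under 0.05 the list had 6 of 10, beside 12.8% of all genes. Among the 7, Itgax had mean log2 levels of 8.59 in floxed and 6.67 in wild-type arrays, and Cd80 8.95 and 7.21. Cd5, a B1 cell marker, had a log2 change of 0.04 and S1pr3, a marginal zone marker, of 0.07. In delta against wild-type 0 of the 10 passed by limma, where 0.0752% of all genes passed. At an unadjusted p under 0.05 the list had 6 of 10 there, beside 7.89% of all genes, and 3 of the 10 changes were negative. Their part in the Bmf result was not tested. In bulk samples, fewer cells that express a gene and less RNA of it per cell cannot be told apart.

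By the naming rule, the genes whose levels followed Bmf most closely over the 10 arrays, among 15400 genes with a mean log2 level of at least 6, were Sufu (Pearson r = 0.964), Tmem134 (0.935), Tnfrsf19 (0.929), Tnfrsf11b (0.928) and Yju2 (0.923). The 10 points of each correlation fall into the same 3 groups. Their own changes in floxed against wild-type were small, with log2 values of -0.21 for Sufu, -0.09 for Tmem134, -0.34 for Tnfrsf19, -0.09 for Tnfrsf11b and -0.09 for Yju2, none past the threshold.

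Pmaip1 encodes NOXA, the BH3-only protein that binds MCL1 and is a known target of p53 and of the stress factors ATF3 and ATF4. Levels of Pmaip1 on the log2 scale were 8.86, 7.78, 7.86 and 8.28 in delta, 8.10, 8.42 and 8.09 in floxed, and 7.76, 7.72 and 7.82 in wild-type arrays. All floxed arrays were above all wild-type arrays, and among delta arrays 1 and 4 were high while 2 and 3 lay near wild-type. The log2 change of Pmaip1 was 0.43 in floxed against wild-type (SE 0.22, 95% CI -0.06 to 0.92, adjusted p = 0.454). Delta arrays differed from wild-type arrays by 0.42 (SE 0.21, 95% CI -0.03 to 0.88, adjusted p = 0.672), so neither passed. Without delta 1 the change in delta against wild-type was 0.20. With the sex pattern as a covariate the change in floxed against wild-type turned to -0.45 (SE 0.23, limma adjusted p = 0.733), an estimate in which delta 1 alone separates sex from genotype.

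Atf3 and the immediate early gene Fos, which like Atf4 and Egr1 were chosen after their values were seen, were high in some of the same arrays. Atf3 had log2 levels of 8.50, 7.36, 7.35 and 8.44 in delta, 7.49, 7.52 and 7.02 in floxed, and 7.10, 7.33 and 7.22 in wild-type arrays. Fos had 10.32, 9.16, 8.79 and 9.56 in delta, 9.27, 9.80 and 9.22 in floxed, and 8.49, 9.23 and 8.32 in wild-type arrays. Atf4 had 9.55, 9.36, 9.32 and 9.43 in delta, 9.39, 9.24 and 9.29 in floxed, and 9.14, 9.33 and 9.31 in wild-type arrays. Delta 1 and delta 4 were the highest delta arrays for Pmaip1, Atf3, Fos, Atf4 and the immediate early gene Egr1. Floxed arrays did not share an order, since floxed 2 was highest for Pmaip1, Atf3 and Fos, lowest for Atf4, and below floxed 3 for Egr1 (8.91 against 9.43). The part of such stress genes in the Pmaip1 levels was not tested.

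Bcl2l11 encodes BIM, which binds all survival proteins and is the main killer of self-reactive and cytokine-starved lymphocytes. Levels of Bcl2l11 on the log2 scale were 9.10, 8.94, 9.21 and 9.12 in delta, 8.88, 9.20 and 8.80 in floxed, and 9.24, 9.22 and 8.79 in wild-type arrays. The spread within the floxed and wild-type groups was as wide as any gap between groups, with wild-type 3 the lowest array of all. Bcl2l11 had a log2 change of -0.12 in floxed against wild-type (95% CI -0.41 to 0.17, adjusted p = 0.752). For delta against wild-type the value was 0.01 (95% CI -0.26 to 0.29, adjusted p = 0.990). The promoter window of Bcl2l11 printed above holds the FOXO core, as does that of Bbc3, and the FOXO gene Foxo1, named outside the rule, had log2 levels of 11.22 to 11.30 in delta, 11.18 to 11.27 in floxed and 11.21 to 11.36 in wild-type arrays.

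Bbc3 encodes PUMA, a p53 and FOXO target that binds all survival proteins. Levels of Bbc3 on the log2 scale were 6.88, 6.65, 7.09 and 7.05 in delta, 7.00, 6.93 and 6.86 in floxed, and 6.94, 6.94 and 6.85 in wild-type arrays. The delta arrays spanned the values of both other groups. Bbc3 had a log2 change of 0.02 in floxed against wild-type (95% CI -0.20 to 0.25). Delta arrays differed from wild-type arrays by 0.00 (95% CI -0.21 to 0.21), with adjusted p of 0.956 and 0.996.

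Bid encodes the BH3-only protein that caspase 8 cuts to link death receptors to mitochondria. Its log2 levels were 9.69, 9.64, 9.65 and 9.69 in delta, 9.72, 9.89 and 9.86 in floxed, and 9.57, 9.47 and 9.87 in wild-type arrays. All delta arrays were below all floxed arrays, and wild-type 3 stood with the floxed arrays. The log2 change of Bid was -0.16 in delta against floxed (95% CI -0.35 to 0.03, adjusted p = 0.831) and 0.19 in floxed against wild-type (95% CI -0.02 to 0.39, adjusted p = 0.434). In floxed against wild-type it was 0.10 without wild-type 2 and 0.30 without wild-type 3.

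Bad encodes a BH3-only protein that AKT and other survival kinases keep inactive by phosphorylation. Levels of Bad on the log2 scale were 7.60 to 7.76 in delta, 7.55 to 7.75 in floxed and 7.56 to 7.80 in wild-type arrays, so all groups overlapped. Bad had a log2 change of -0.06 in floxed against wild-type (95% CI -0.23 to 0.12). For delta against wild-type the value was 0.00 (95% CI -0.16 to 0.17). In the reported fit these intervals reach to -0.23 at the furthest. Over 21 alternative settings the change of Bad in floxed against wild-type itself lay between -0.18 and -0.01.

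Among the survival genes, Mcl1 encodes a short-lived protein that B cells need at every stage. Its log2 levels were 12.07, 12.21, 12.13 and 12.16 in delta, 12.18, 12.16 and 12.34 in floxed, and 12.31, 12.45 and 12.39 in wild-type arrays. All delta arrays were below all wild-type arrays, while floxed 3 reached into the wild-type range. Mcl1 had a log2 change of -0.24 in delta against wild-type (SE 0.07, 95% CI -0.39 to -0.10), which did not pass by limma over all genes (adjusted p = 0.318). In floxed against wild-type it was -0.16 (SE 0.07, 95% CI -0.31 to -0.00, adjusted p = 0.378). Mcl1 in delta against wild-type stayed between -0.28 and -0.21 over 22 alternatives, never past the threshold.

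Bcl2, named for the B cell lymphoma translocation, keeps naive and recirculating B cells alive. Its log2 levels were 11.07, 11.13, 11.16 and 11.28 in delta, 11.17, 11.32 and 11.27 in floxed, and 11.29, 11.22 and 11.30 in wild-type arrays. The groups overlapped, with delta 1 the lowest array. The log2 change of Bcl2 was -0.02 in floxed against wild-type (95% CI -0.17 to 0.14, adjusted p = 0.948). Delta arrays differed from wild-type arrays by -0.11 (95% CI -0.25 to 0.03, adjusted p = 0.760).

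Bcl2l1 encodes BCL-XL, the survival protein of activated lymphocytes and of erythroid precursors. Levels of Bcl2l1 on the log2 scale were 6.97, 7.06, 7.18 and 7.20 in delta, 7.33, 7.53 and 7.26 in floxed, and 7.18, 7.10 and 7.11 in wild-type arrays. All floxed arrays were above all others, and delta and wild-type arrays overlapped. Bcl2l1 had a log2 change of 0.25 in floxed against wild-type (SE 0.09, 95% CI 0.06 to 0.43, limma adjusted p = 0.251). For delta against floxed the value was -0.27 (SE 0.08, 95% CI -0.44 to -0.09, adjusted p = 0.654). Neither passed over all genes. The erythroid markers, which were 0.89, 0.68 and 0.42 above the wild-type mean in floxed 1, 2 and 3, were highest in the same group. So was the mean of the plasma cell markers, at 0.24 to 0.26 above it, though their changes in floxed against wild-type ran from -0.51 to 1.64. The T cell (0.02 to 0.63) and NK cell (0.18 to 0.64) means also reached their highest values in floxed arrays, but overlapped with delta arrays. Within the floxed group the orders differed, with Bcl2l1 highest in floxed 2 and the erythroid mean highest in floxed 1. The part of these markers in the Bcl2l1 levels was not tested.

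Bak1 encodes the effector BAK, which forms pores in the mitochondrial membrane once BH3-only proteins free it. Levels of Bak1 on the log2 scale were 9.22 to 9.30 in delta, 9.28 to 9.44 in floxed and 9.30 to 9.36 in wild-type arrays. The log2 change of Bak1 was 0.04 in floxed against wild-type (95% CI -0.09 to 0.18). For delta against floxed the value was -0.12 (95% CI -0.25 to 0.00, adjusted p = 0.780), and 86.5% of all genes had a wider range over the 10 arrays.

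**Figure D3:**
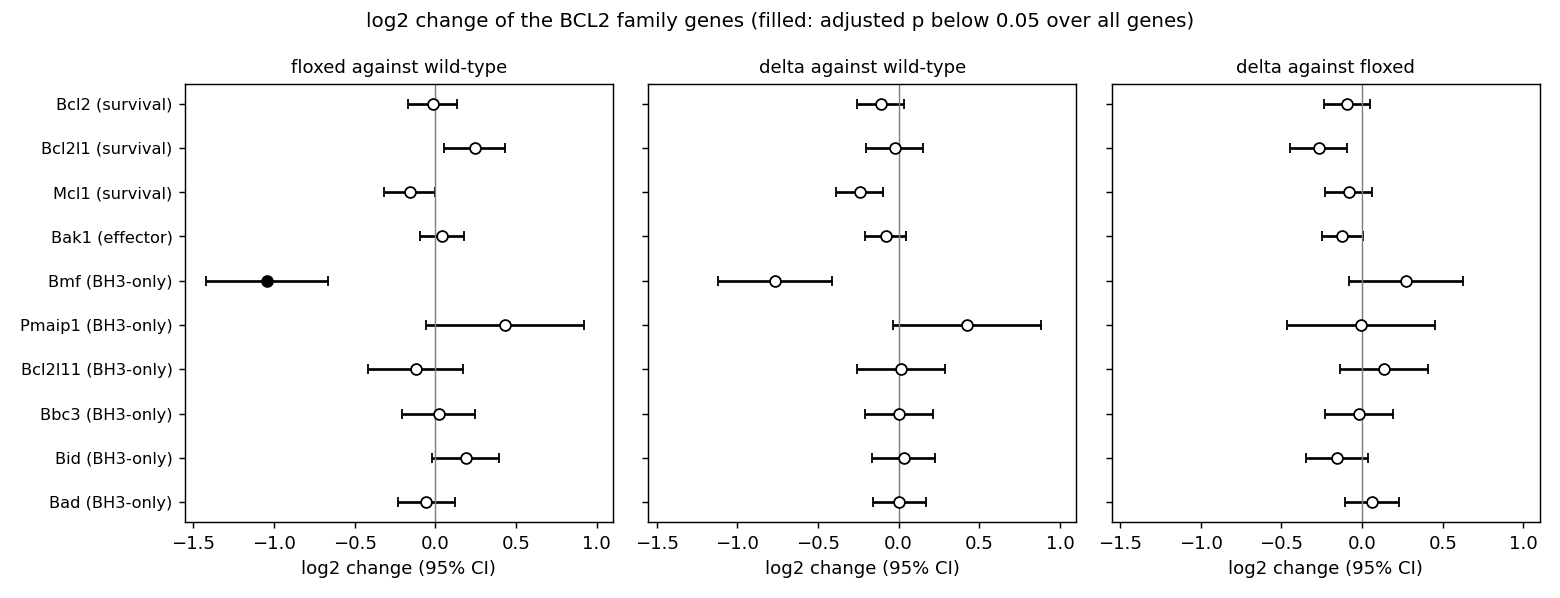
Log2 change (x axis) with its 95% CI for each BCL2 family gene in the 3 comparisons, filled where the adjusted p over all genes was below 0.05. Bmf in floxed against wild-type (-1.04) is the only filled point, and its interval in delta against wild-type lies at -1.12 to -0.41.

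To set survival against BH3-only genes, each gene's log2 difference from its wild-type mean was averaged within a role for every array. The 3 survival genes averaged -0.22 to -0.05 in delta, -0.04 to 0.08 in floxed and -0.00 to 0.01 in wild-type arrays. The 6 BH3-only genes averaged -0.14 to 0.05 in delta, -0.13 to -0.07 in floxed and -0.06 to 0.05 in wild-type arrays. Survival minus BH3-only was thus -0.27 to 0.02 in delta, 0.05 to 0.16 in floxed and -0.04 to 0.06 in wild-type arrays, and the floxed and wild-type ranges overlapped.

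The averages were also taken without Bmf, whose low level in floxed arrays fixes the direction in which they shift. Without it, the other 5 BH3-only genes averaged -0.07 to 0.23 in delta, 0.03 to 0.18 in floxed and -0.01 to 0.01 in wild-type arrays. Survival minus these 5 was -0.45 to -0.06 in delta, -0.11 to -0.00 in floxed and -0.01 to 0.01 in wild-type arrays. Floxed 3 then stood at -0.00, within the wild-type range, and among the 5 genes Pmaip1, which did not pass and turned sign with sex, was the highest above its wild-type mean in floxed against wild-type (0.43). The lowest value, -0.45, belonged to delta 1, in which Pmaip1 was highest and Bcl2, Mcl1 and Bcl2l1 were lowest. Such averages weigh each gene alike and hold no protein measurement.

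**Figure D4:**
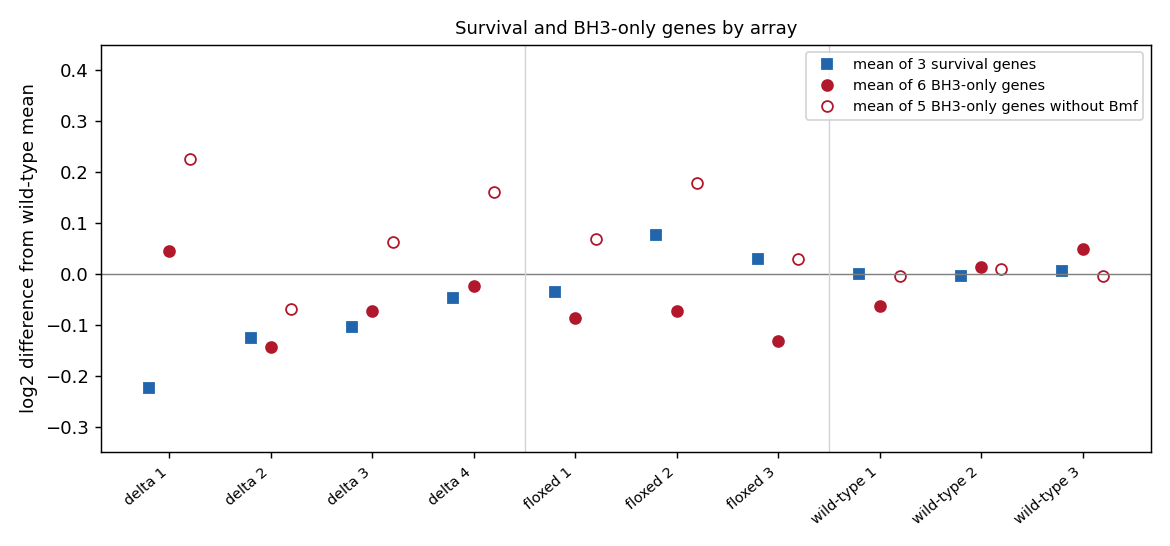
Mean log2 difference from the wild-type mean (y axis) of the 3 survival genes, the 6 BH3-only genes and the 5 BH3-only genes without Bmf in each of the 10 arrays. The floxed BH3-only means lie at -0.13 to -0.07 with Bmf and at 0.03 to 0.18 without it.

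The rest of the family showed no change past the threshold. The unadjusted counts of this and the following lists stand beside 12.8%, 7.89% and 6.42% of all genes in floxed and in delta arrays against wild-type and in delta against floxed. Of 16 further family genes 12 were measured singly, and 0 passed by limma in any comparison, with 1, 1 and 2 at an unadjusted p under 0.05 in that order. The list medians were -0.00, -0.03 and -0.01 on the log2 scale. The smallest p in floxed against wild-type belonged to Bcl2a1c, of the A1 survival family induced by NF-kappaB, at 0.48 (SE 0.14, adjusted p = 0.162), and to Bcl2l15 at -0.21 (adjusted p = 0.462). The smallest for delta against wild-type belonged to Bcl2a1c at 0.31 (adjusted p = 0.577) and Bcl2l14 at 0.14 (adjusted p = 0.810). In delta against floxed they belonged to Bcl2l15 at 0.30 (adjusted p = 0.724) and Bcl2l2, which encodes the survival protein BCL-W, at -0.19 (adjusted p = 0.775). The Bcl2l15 probe set was dim, with group means of 4.71 to 5.01 on the log2 scale.

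The near-identical A1 genes Bcl2a1a, Bcl2a1b, Bcl2a1c and Bcl2a1d cannot be separated with certainty on this array. A pair of probe sets carried all 4 symbols. Their log2 changes in floxed against wild-type were 0.44 (SE 0.14, limma adjusted p = 0.285) and 0.08 (SE 0.19, adjusted p = 0.913) when every probe set was tested. In delta against wild-type they were 0.32 and -0.06. The first probe set was the brighter, at RMA intensities of 952 to 1691 over all arrays against 147 to 258 for the other. Bax was not analysed here.

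Downstream of the mitochondrion, the apoptosome and caspase list had 19 of 21 genes measured and 0 past the threshold by limma in each comparison, with 1, 2 and 0 at an unadjusted p under 0.05 in the same order, beside those 12.8%, 7.89% and 6.42% of all genes. Its log2 changes in floxed against wild-type ran from -0.16 to 0.20 with a median of 0.00. Htra2, a mitochondrial protease that blocks caspase inhibitors, was at 0.20 in floxed against wild-type (adjusted p = 0.216), and Casp9, the initiator caspase of the apoptosome, at -0.16 (adjusted p = 0.476). In delta against wild-type Apaf1, the scaffold of the apoptosome, was at -0.24 (SE 0.08, adjusted p = 0.450) and Birc3, a cellular inhibitor of apoptosis, at 0.15 (adjusted p = 0.518). In delta against floxed Htra2 was at -0.13 (adjusted p = 0.777) and Birc5 at -0.18 (adjusted p = 0.816).

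The death receptor list had 9 of 10 genes measured and again 0 past the threshold in each comparison by limma, with 3, 2 and 0 of 9 at an unadjusted p under 0.05 in the same order, beside 12.8%, 7.89% and 6.42% of all genes. In floxed against wild-type 8 of its 9 genes had a positive log2 change, with a median of 0.12. Traf1, an adaptor and NF-kappaB target, was at 0.77 (SE 0.17, adjusted p = 0.0758), with log2 levels of 8.94 to 9.50 in delta, 9.19 to 9.70 in floxed and 8.38 to 8.90 in wild-type arrays. Fas, the death receptor of activated B cells, was at 0.70 (SE 0.21, adjusted p = 0.188). In delta against wild-type Traf1 was at 0.59 (adjusted p = 0.308) and Tnfrsf10b, the mouse TRAIL receptor, at 0.27 (adjusted p = 0.622). In delta against floxed all 9 changes were negative, with Fadd at -0.17 (adjusted p = 0.843) and Fas at -0.31 (adjusted p = 0.847).

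Of 20 transcription factors known to act on these genes 18 were measured, and Stat3 rose in floxed against wild-type. STAT3, a cytokine-driven factor that raises Bcl2l1 and Mcl1, had log2 levels in floxed arrays that were all above the wild-type arrays, with a log2 change of Stat3 of 0.45 (SE 0.07, adjusted p = 0.0171). It was at 0.29 in delta against wild-type (SE 0.06, adjusted p = 0.174) and at -0.16 in delta against floxed (adjusted p = 0.748). Myc, which sensitises cells to apoptosis and raises BIM, was at 0.90 in delta against wild-type (SE 0.24, adjusted p = 0.293). Bach2 was at 0.20 in delta against floxed (adjusted p = 0.794). The other 17 factors did not pass in floxed against wild-type, where 0.552% of all genes passed, and the list median there was -0.02. At an unadjusted limma p under 0.05 the list had 3 and 2 of 18 in floxed and in delta against wild-type. It had 1 of 18 in delta against floxed. These counts stand beside 12.8%, 7.89% and 6.42% of all genes. Stat3 passed in 14 of 21 alternative settings. Without floxed replicates 2 or 3, or wild-type replicates 1 or 2, Stat3 had adjusted p of 0.075, 0.0676, 0.0567 and 0.0717, with log2 changes of 0.42, 0.44, 0.48 and 0.46. It also did not pass with every probe set as its own row (0.45, adjusted p = 0.0725), with the T cell mean (0.49, adjusted p = 0.108) or with the sex pattern (0.52, adjusted p = 0.365) as a covariate.

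Among 18 genes for partners and turnover of the family's proteins 17 were measured and 0 passed by limma, with 3, 4 and 2 of 17 at an unadjusted p under 0.05 in the same order, beside 12.8%, 7.89% and 6.42% of all genes. The 2 dynein light chain genes had the smallest p in floxed against wild-type and opposite signs. Dynll2, whose product anchors BMF, was at 0.45 (SE 0.10, adjusted p = 0.0691), and Dynll1, whose product anchors BIM, was at -0.39 (SE 0.12, adjusted p = 0.179). Log2 levels of Dynll2 were 8.29 to 8.57 in delta, 8.51 to 8.80 in floxed and 8.08 to 8.30 in wild-type arrays, so the floxed arrays lay above the wild-type arrays as the Bmf levels lay below them. Among delta arrays set against wild-type, Huwe1, a ubiquitin ligase of MCL1, was at 0.15 (adjusted p = 0.542) and Dynll1 at -0.28 (adjusted p = 0.560). In delta against floxed Dynll2 was at -0.23 (adjusted p = 0.736) and Cd40, a survival receptor of B cells, at -0.18 (adjusted p = 0.760).

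Of 21 microRNA genes with known targets in the family 20 were measured, and Mir15a fell in floxed against wild-type while the other 19 did not pass. Its log2 levels were 8.18, 8.21, 8.66 and 8.24 in delta, 8.14, 8.02 and 8.15 in floxed, and 9.13, 9.20 and 8.70 in wild-type arrays. All floxed and delta arrays were below all wild-type arrays. Mir15a had a log2 change of -0.91 in floxed against wild-type (SE 0.14), with a limma adjusted p of 0.0239. For delta against wild-type the value was -0.68 (SE 0.14, adjusted p = 0.150). Mir15a passed in 13 of 21 alternative settings for floxed against wild-type. Without floxed replicates 1, 2 or 3 its adjusted p was 0.06, 0.0935 and 0.0793, and without wild-type replicates 1 or 2 it was 0.0953 and 0.111, with log2 changes from -0.93 to -0.81. It also did not pass with every probe set as its own row (-0.91, adjusted p = 0.0933), with the T cell mean (-0.93, adjusted p = 0.157) or with the sex pattern (-0.72, adjusted p = 0.602) as a covariate. Mir16-1, which lies beside it on chromosome 14 and shares its seed, was at -0.38 in floxed against wild-type (SE 0.09), with an adjusted p of 0.102.

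The remaining microRNA values were smaller or more variable. Mir155, a microRNA of activated B cells, was at 0.36 in delta against wild-type (adjusted p = 0.516), and in delta against floxed Mir181a-2 and Mir16-1 were at 0.14 and 0.16 (adjusted p = 0.777 and 0.822). The list had 1 of 20 past the threshold in floxed against wild-type, beside 0.552% of all genes. At an unadjusted limma p under 0.05 it had 5 and 4 of 20 in floxed and in delta against wild-type. It had 0 of 20 in delta against floxed. These counts stand beside 12.8%, 7.89% and 6.42% of all genes. The median log2 change of the list was -0.12 in floxed against wild-type, with 16 of 20 negative, beside a median of -0.02 for all genes. Some of these probe sets were dim, below a log2 level of 6, such as Mir125b-2 with group means of 3.23 to 3.36. Neighbouring loci such as Mir15a and Mir16-1 may not count as separate genes. Bcl2, the target for which miR-15a and miR-16 are best known, had a log2 change of -0.02 there. The probe sets read transcripts from these loci and not the mature microRNAs printed above.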

How the data were processed

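RNA of B220+CD22+ splenic cells was measured on 10 arrays. The deposited values are the authors' intensity per probe set, made with RMA per the submitters' processing notes. Which RMA software and annotation build made them is not given in the sources used here. Deposited values lie on a linear scale, so log2 was taken. Of 34760 probe sets, 21640 carried 1 gene symbol, 1321 several and 11799 none in the platform annotation. Single-symbol probe sets were kept, with the highest mean for a gene with several, which left 19937 genes. limma 3.58.1 in R 4.3.3 (lmFit, a mean per group over all 10 arrays, eBayes) gave 3 two-sided contrasts, adjusted by Benjamini-Hochberg over all genes at 0.05, after a test of the code on simulated data. The number of arrays limits the precision. An array had a male pattern when the mean of Eif2s3y, Kdm5d and Uty lay above Xist.

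The 10 genes and the lists were chosen with earlier results of these data known. Named were the 10 genes, up to 4 genes past the threshold per list or else the 2 with the smallest p, and the 5 genes most correlated with Bmf. Atf3, Atf4, Fos, Egr1, Foxo1, marker genes beyond 2 a list, Bcl2a1 probe sets with several symbols and Mir16-1 in floxed against wild-type lie outside this rule. Marker lists were described by their means per array. Alternatives concerned normalization, dim genes, gene unit, prior, arrays in the fit, array weights, covariates, a replicate block and each array left out. Arrays of female pattern alone, and every alternative for Stat3, Mir15a, Cd93 and Bcl6, were added after seeing the data. Same-numbered arrays of different groups did not deviate together (correlations from -0.083 to 0.121), so the numbers were not taken as pairs.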

Additional observations from a re-analysis of the deposited data

Results flagged for a closer look

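Mir15a in delta 3 lay far from the other delta arrays, at a log2 level of 8.66 against 8.18 to 8.24 in delta 1, 2 and 4. The gap was 0.877 of the range of the group. Such a gap was looked for in 34 named genes over the 4 delta arrays and found in 1, and chance gives about 1 in 20 groups.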

How the results depend on the processing

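Over 22 alternative settings, the 30 log2 changes of the 10 genes gave 640 values: 597 kept direction and side of the threshold, 35 turned sign, 8 lost the call of Bmf and 0 gained one. The count of genes called in floxed against wild-type, 110 as reported, was 178 with arrays centred on medians, 173 without dim genes, 18 with every probe set as its own row, 193 with 2 groups alone in the fit, 208 with array weights, 2 with sex and 9 with T cell level as covariates, 188 with a replicate block, and 18 to 240 with 1 array left out. For delta against wild-type, 15 as reported, it was 3 with centring, 1 with every probe set, 9 with a trended robust prior, 0 with 2 groups alone (1744 at an unadjusted limma p under 0.05), 3 with sex, 9 with the T cell mean, 6 with a replicate block, 1 with arrays of female pattern alone (chosen after seeing the data), and 0 to 23 with 1 array left out. For delta against floxed, 1 as reported, it was 3 with the trended robust prior, 2 with 2 groups alone, 2 with a replicate block and 1 to 10 with 1 array left out. Signs turned for Bcl2 in floxed against wild-type with centring (0.020), sex (0.10) and the T cell mean (0.0046), and there for Pmaip1 with sex (-0.45) and for Bcl2l11 (0.022) and Bbc3 (-0.053) with the T cell mean. In delta against wild-type they turned for Bcl2l11 (-0.029) and Bbc3 (-0.010) with array weights, Bcl2l1 with sex and with female arrays alone (0.021 in both), and Bbc3 (-0.042) and Bad (-0.014) with the replicate block. In delta against floxed they turned for Pmaip1 with sex (0.65) and for Bcl2l11 (-0.017) and Bbc3 (0.060) with the T cell mean. With 1 array left out, floxed against wild-type ranged from -0.052 to 0.026 for Bcl2 and -0.014 to 0.056 for Bbc3, and for Bcl6 from -0.30 to 0.044. Delta against wild-type ranged from -0.056 to 0.021 for Bcl2l1, -0.066 to 0.055 for Bad, -0.13 to 0.092 for Bcl2l11, -0.054 to 0.092 for Bbc3 and -0.054 to 0.15 for Bid. Delta against floxed ranged from -0.075 to 0.071 for Bbc3 and -0.23 to 0.13 for Pmaip1. The causes were not tested. With the replicate block Bmf in floxed against wild-type stayed at -1.04 (adjusted p = 0.0294) and no call among the 10 genes changed. With 3 or 4 arrays a group, small changes were not detectable.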
